A study of Bos taurus with 18 samples.

Results

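The glucocorticoid receptor gene NR3C1 and 9 genes known as its targets were followed in MAC-T, a single immortalised cell line from bovine mammary epithelium. The 10 genes were chosen by name: NR3C1, FKBP5, TSC22D3, DUSP1, ERRFI1, PER1, SGK1, CEBPD, ZBTB16 and GLUL. All 10 were among the 30642 genes of the deposited count table, and all 10 were among the 15158 genes with enough reads to be tested. Messenger RNA was sequenced in 18 libraries, 3 for each of 6 groups. The experiment compared a hormone-rich lactogenic medium with a basal medium, heat with no heat, and 2 recovery times after heat.

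The glucocorticoid receptor is a transcription factor that waits in the cytosol, bound to HSP90 and its partner proteins, until a glucocorticoid such as cortisol or dexamethasone binds it. The occupied receptor moves to the nucleus and changes the transcription of its targets, several of which encode proteins that restrain the receptor itself or the kinase pathways it opposes. In the mammary gland, glucocorticoids act with prolactin and insulin to bring epithelial cells to milk production.

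Every group received a glucocorticoid. The basal medium held 1 µg/ml hydrocortisone, 5 µg/ml insulin and 10% fetal bovine serum. The lactogenic medium was this basal medium with 10 µg/ml dexamethasone, 5 µg/ml ovine prolactin and a 5% serum supplement. All cells were cultured for 4 days. Undifferentiated cells stayed in basal medium, either unheated at 37 °C (NHSUD) or held at 42 °C for 1 h before collection (HSUD). Differentiated cells were kept in lactogenic medium, either unheated (NHSD), heated in the same way (HSD), or heated and returned to 37 °C for 2 h (D2R) or 6 h (D6R). Each library pooled 2 technical replicates of a group, and the experiment was carried out 3 times. Both unheated groups shared plate I, both heated groups plate II and both recovery groups plate III. Effects of heat or recovery against another plate therefore cannot be told apart from effects of the plate, whereas the media were compared within a plate. Dexamethasone, prolactin and serum were added together and cannot be told apart, and no group lacked glucocorticoid. The recovery groups were collected later than the unheated groups.

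Libraries held 40.9 to 61.2 M counts. Levels are given as CPM, read counts relative to the library total after TMM scaling, a correction for the makeup of each library. Summed CPM of 8 epithelial keratin and adhesion markers lay between 14254 and 25439, and the 4 immune markers summed to at most 1.98 CPM. The 6 fibroblast markers summed to between 427 and 820 CPM, although the collagen genes COL1A1 and COL1A2 had too few reads to be tested. Most of that sum was DCN, with group means of 526 to 617 CPM, beside 6.80 to 10.1 CPM for PDGFRA. The 4 myoepithelial markers summed to between 92.3 and 249 CPM, most of it ACTA2, with group means of 125 to 157 CPM. A gene was called when the adjusted p of edgeR's quasi-likelihood test, over all 15158 genes, was under 0.05. A second fit added the replicate number, 1 to 3, as a block, because same-numbered libraries deviated together. In such bulk samples, fewer cells expressing a gene and less RNA per cell cannot be told apart. The replicate 1 library of D6R stood apart from the other 2 in DUSP1 and in the early gene JUN. Results of single members at 6 h are therefore given with and without it. It was singled out by the values of DUSP1 itself. P-values and calls of DUSP1 without it follow in part from that choice and add no support. SGK1 correlated with DUSP1 over the 18 libraries (r = 0.91 after the mean of each replicate number was subtracted). P-values and calls of SGK1 without that library are therefore not independent of the choice and add no support either.

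The receptor gene itself held a narrow range. In replicates 1, 2 and 3, NR3C1 read 25.8, 36.9 and 32.1 CPM in NHSUD and 33.0, 30.0 and 31.8 CPM in NHSD. After heat, it read 25.2, 34.4 and 32.1 CPM in HSUD and 24.9, 30.3 and 34.0 CPM in HSD. During recovery, it read 27.7, 28.0 and 34.4 CPM in D2R and 31.6, 31.5 and 35.1 CPM in D6R. Group means ran in the order HSD, D2R, HSUD, NHSD, NHSUD and D6R, and covered 0.15 on the log2 scale. All 6 groups overlapped, so no neighbours in that order differed beyond their spread. NR3C1 was not called in any of the 12 comparisons, with or without the block.

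**Figure D1:**
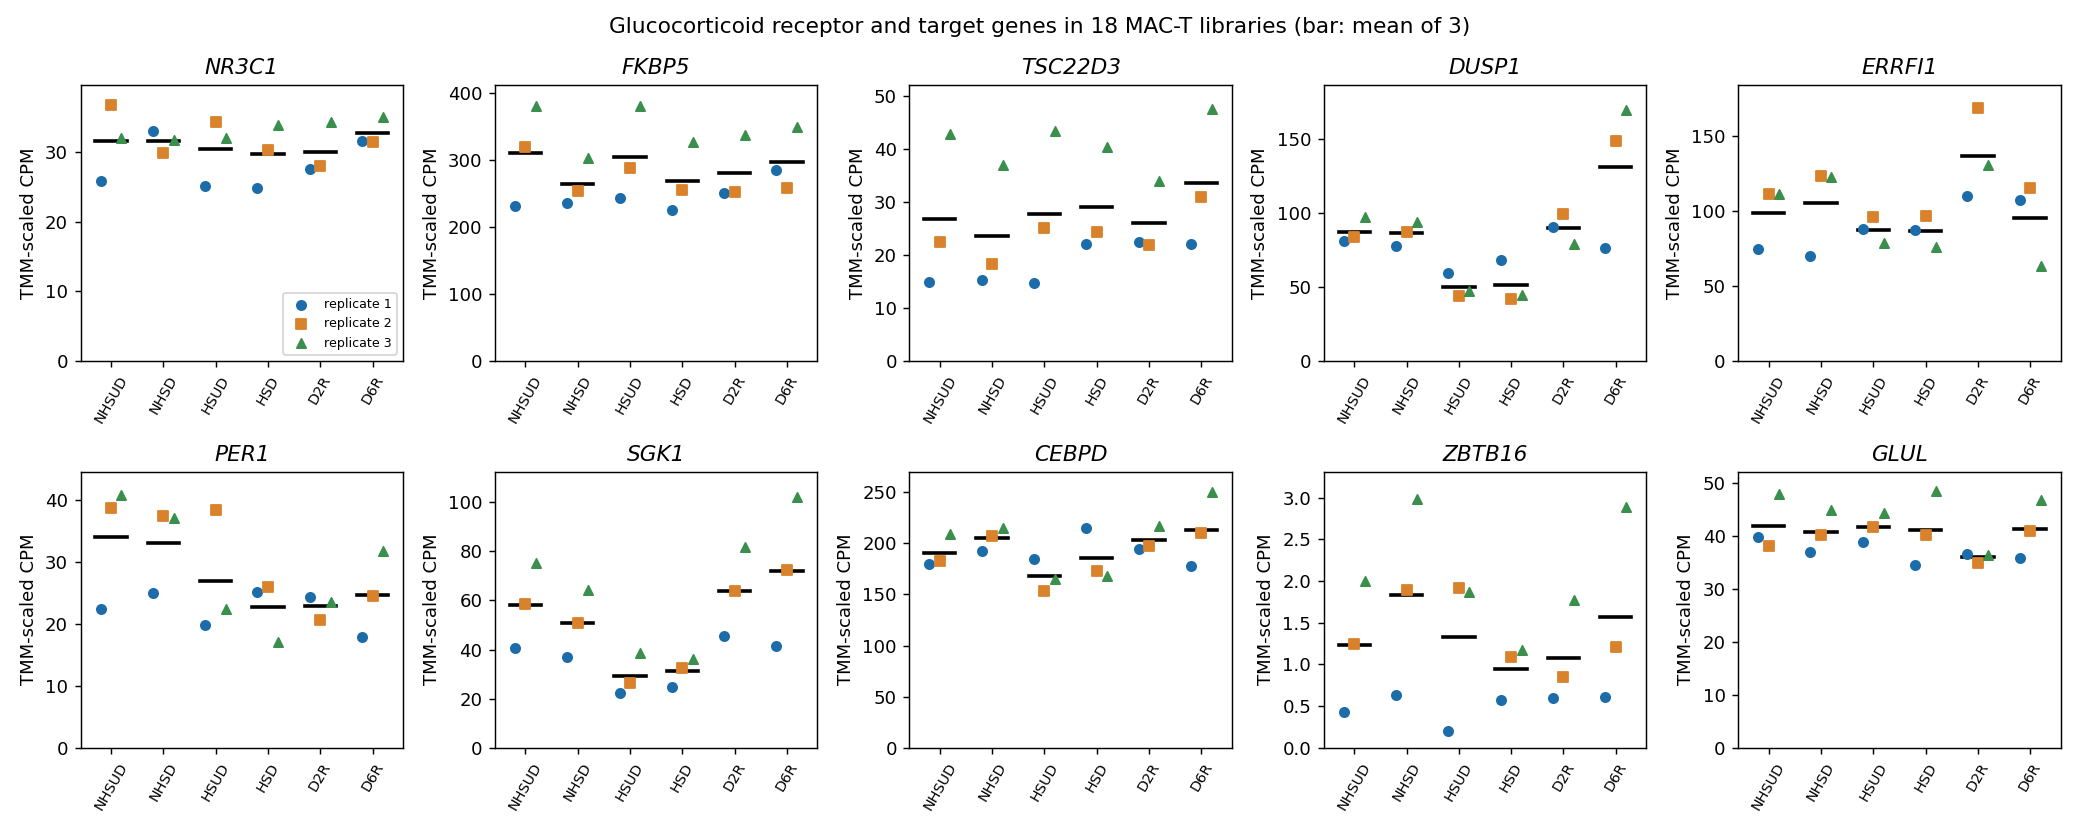
TMM-scaled CPM (y axis) of the receptor gene and 9 target genes in the 6 groups (x axis); each symbol is 1 library, its shape and colour the replicate number, and the bar is the mean of 3. SGK1 and DUSP1 are lowest in HSUD and HSD, while replicate 3 lies above replicate 1 in 6 of 6 groups for TSC22D3, FKBP5, ZBTB16 and SGK1.

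The lactogenic medium, with its added dexamethasone, left no detected change in any of the 10 genes. With edgeR, 0 of 10 were called in unheated cells, in heated cells or in the average of both, beside a background of 0% of all tested genes in each. None of the 10 reached an unadjusted p under 0.05 in these tests, beside 253, 267 and 606 of 15158 tested genes. DESeq2 called 0 of 10 as well, beside 0, 0 and 37 of all tested genes. With the block, 1 of 10 reached an unadjusted p under 0.05 in unheated cells and in the average, FKBP5 in both. The shares of all tested genes there were 5.31% and 12.3%. With the block, 0 of 10 were called as well, beside 0.0066% of all tested genes in unheated cells, 0.0198% in heated cells and 0.805% in the average. The median log2 fold change of the 10 genes in the average was -0.03, beside -0.01 for all tested genes.

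FKBP5 encodes a cochaperone of HSP90 that lowers the receptor's affinity for its hormone, and it is among the most widely used readouts of glucocorticoid action. Its level in replicates 1, 2 and 3 was 231, 319 and 381 CPM in NHSUD and 235, 254 and 302 CPM in NHSD. After heat, FKBP5 read 244, 289 and 380 CPM in HSUD and 225, 256 and 326 CPM in HSD. The groups overlapped, and the lactogenic library was the lower one in 2 of 3 replicates without heat and in 3 of 3 with heat. Averaged over heat, FKBP5 differed by -0.21 ± 0.15 (log2, SE, n = 3 per group), with a 95% interval of -0.52 to 0.10. With the block, the estimate was -0.19 with an interval of -0.34 to -0.05 and an adjusted p of 0.246 (edgeR). An upward change of FKBP5 by more than 0.10 lay outside both intervals.

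TSC22D3, also known as GILZ, encodes a leucine zipper protein that mediates anti-inflammatory effects of glucocorticoids. It read 15.0, 22.4 and 42.8 CPM in NHSUD and 15.4, 18.3 and 37.0 CPM in NHSD, so both groups covered nearly the same range. Averaged over heat, TSC22D3 differed between media by -0.06 on the log2 scale, with an interval of -0.71 to 0.59. With the block, the interval narrowed to -0.23 to 0.20. PER1, a clock gene with receptor binding sites in its promoter region in other species, differed by -0.14 with an interval of -0.56 to 0.28.

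SGK1, a kinase that regulates ion channels and cell survival, differed between media by -0.05 with an interval of -0.52 to 0.42, or -0.20 to 0.13 with the block. DUSP1, a phosphatase that switches off MAP kinases, differed by 0.01 with an interval of -0.34 to 0.36. ERRFI1, an inhibitor of EGF receptor signalling, differed by 0.04 with an interval of -0.33 to 0.40. Averaged over heat, these 3 genes had estimates close to 0 in the comparison that added dexamethasone. For SGK1 that average joined differences within replicates of -0.14, -0.20 and -0.23 in unheated cells with 0.16, 0.30 and -0.10 in heated cells.

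CEBPD, a transcription factor of the C/EBP family, was higher in lactogenic medium in 3 of 3 replicates of the average, at 0.13 with an interval of -0.07 to 0.33. GLUL, which encodes glutamine synthetase, differed by -0.03 with an interval of -0.24 to 0.18. ZBTB16, a zinc finger transcription factor also known as PLZF, had only 8 to 172 counts per library. In unheated cells it was higher in lactogenic medium in 3 of 3 replicates, by 0.51, 0.58 and 0.56 within replicates and 0.59 in the fit, and in heated cells in 1 of 3, at -0.49, and neither was called. The difference between these estimates was -1.08 with an interval of -3.32 to 1.16. Averaged over heat, its interval for the medium, -1.08 to 1.17, was the widest of the 10 genes, and with the block it was -0.38 to 0.69.

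Further genes known to respond to glucocorticoids gave the same count. Of 35 such genes, 29 had enough reads, and 0 of 29 were called for the medium in unheated cells, in heated cells or in the average, with or without the block. Of all tested genes, 0% were called without the block, and 0.0066%, 0.0198% and 0.805% with it, so few calls were to be had for any list. NFKBIA, which encodes an inhibitor of NF-kB and is a known receptor target, had the smallest p of this list in the average, at -0.53 (edgeR adjusted p = 0.9997, or 0.121 with the block). BIRC3 had the next smallest p and went the other way. Its mean was 26.4 CPM in NHSUD and 31.1 CPM in NHSD, and 26.4 CPM in HSUD and 31.2 CPM in HSD. The median of the 29 genes was 0.09, beside -0.01 for all tested genes. TAT, PCK1 and IGFBP1, liver targets of the receptor, were among the 6 genes with too few reads.

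DUSP1 and SGK1 were lower after heat in all 3 replicates of both media, and no other of the 10 genes was called for heat averaged over the media in either fit. With edgeR and no block, 1 of 10 genes was called, DUSP1, beside 0.785% of all tested genes. With the block, 2 of 10 were called, DUSP1 and SGK1, beside 6.1% of all tested genes. Both calls were for lower levels, where the background was 0.297% without and 2.97% with the block. The median log2 fold change of the 10 genes was -0.20, beside 0.00 for all tested genes.

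DUSP1 read 81.2, 83.4 and 97.0 CPM in NHSUD, and 59.4, 44.0 and 47.2 CPM in HSUD. In differentiated cells it read 77.9, 86.9 and 93.6 CPM before heat, and 68.0, 41.8 and 44.8 CPM in HSD. Every heated library was below every unheated one in both media. Averaged over media, DUSP1 fell by 0.77 ± 0.17 on the log2 scale (SE, n = 3 per group; edgeR adjusted p = 0.0372), and by 0.77 ± 0.19 with the block (adjusted p = 0.036). The fall was smallest in replicate 1, at -0.32, beside -0.99 in replicate 2 and -1.05 in replicate 3. The call held in 2 of 12 fits that each left out 1 library, those without NHSD replicate 1 (-0.80) and without HSD replicate 1 (-0.89). Across the 12 fits the estimate stayed between -0.89 and -0.70, with adjusted p from 0.0226 to 0.118. With the block, the call held in 3 of 12 such fits, with adjusted p from 0.00761 to 0.114.

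SGK1 read 40.7, 58.6 and 75.2 CPM in NHSUD, and 22.1, 26.4 and 38.6 CPM in HSUD. It read 37.0, 50.8 and 64.1 CPM in NHSD, and 24.8, 32.5 and 36.0 CPM in HSD. The heated libraries lay below all unheated libraries within each medium. The replicate 3 library was the highest and the replicate 1 library the lowest in 6 of 6 groups. Without the block, SGK1 differed by -0.85 ± 0.23 and was not called (edgeR adjusted p = 0.113). With the block, which compares libraries of the same number, SGK1 fell by 0.84 ± 0.08 (adjusted p = 1.3e-06). The fall was similar in size in the 3 replicates, at -0.73, -0.89 and -0.90. With the block, the call held in 12 of 12 fits that left out 1 library. DESeq2 without a block gave -0.85 with an adjusted p of 0.0152.

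The fall of SGK1 was also called within each medium once the block was included. It was -0.99 in undifferentiated cells (edgeR adjusted p = 4.6e-05), where 0.633% of all tested genes were called. It was -0.68 in differentiated cells (adjusted p = 0.0036), where 0.554% of all tested genes were called, and this call was lost without HSD replicate 3 (adjusted p = 0.0527). Without the block, 0 of 10 genes were called in either medium, beside 0.125% and 0.099% of all tested genes, and 2 of 10 in each medium, DUSP1 and SGK1, had an unadjusted p under 0.05, beside 4.21% of all tested genes in undifferentiated and 4.42% in differentiated cells. DESeq2 called 0 of 10 within a medium as well, beside 86 of 15158 tested genes in undifferentiated and 61 in differentiated cells. The difference of the heat effect between the media was tested by itself, and 0 of 10 genes and 0% of all tested genes were called with or without the block. An unadjusted p under 0.05 was reached by 0 of 10 genes, beside 88 of 15158 tested genes without and 155 with the block. For SGK1 that difference was 0.30 with an interval of -0.65 to 1.24, and -0.01 to 0.64 with the block. For DUSP1 it was 0.05 with an interval of -0.65 to 0.76.

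**Figure D2:**
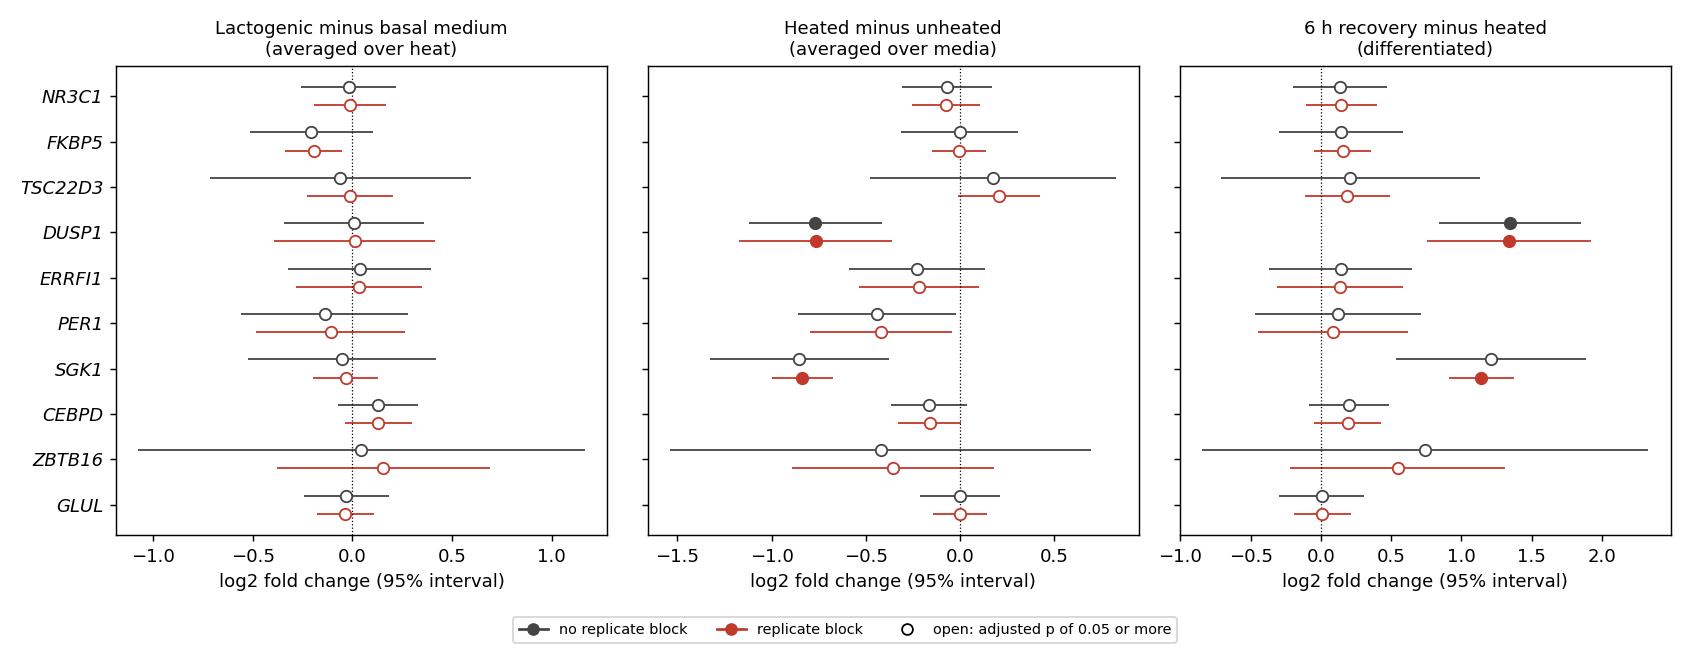
log2 fold changes (x axis, with 95% intervals) of the 10 genes (y axis) for the medium, for heat and for 6 h of recovery against heat; grey symbols are from the fit without and red symbols from the fit with the replicate block, and filled symbols have an adjusted p under 0.05. All medium symbols are open, and the filled symbols belong to DUSP1 and SGK1, at -0.77 and -0.84 for heat.

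The other 8 genes were not called for heat. PER1 had the next largest estimate by size, -0.44 with an interval of -0.86 to -0.02 (edgeR adjusted p = 0.476), and was lower after heat in 3 of 3 replicates of the average. It read 22.3, 38.6 and 40.8 CPM in NHSUD, and 19.8, 38.3 and 22.4 CPM in HSUD. In differentiated cells PER1 read 24.9, 37.3 and 37.0 CPM before heat and 25.1, 25.9 and 17.0 CPM after it, and the groups overlapped in both media.

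TSC22D3 was higher after heat in 3 of 3 replicates of the average, by 0.18 with an interval of -0.48 to 0.83, or 0.21 with an interval of -0.01 to 0.42 with the block. It read 14.7, 25.1 and 43.4 CPM in HSUD and 22.2, 24.4 and 40.5 CPM in HSD. FKBP5 differed by 0.00 with an interval of -0.31 to 0.31, and GLUL by 0.00 with an interval of -0.21 to 0.22. CEBPD differed by -0.16, ERRFI1 by -0.23, ZBTB16 by -0.42 and NR3C1 by -0.07, all with intervals that included 0.

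CEBPD read 180, 182 and 209 CPM in NHSUD, and 185, 153 and 165 CPM in HSUD. In differentiated cells it read 193, 207 and 215 CPM before heat and 215, 173 and 168 CPM after it. Replicates 2 and 3 were lower after heat in both media, and replicate 1 was higher. ERRFI1 had the same split, at 74.5, 111 and 111 CPM in NHSUD and 88.0, 95.6 and 78.8 CPM in HSUD. In NHSD it read 69.9, 123 and 122 CPM, beside 87.0, 96.5 and 75.8 CPM in HSD. For both genes, as for DUSP1, replicate 1 was the replicate with the smallest decrease or a positive difference.

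Of 18 tested genes of receptor folding, hormone conversion and coregulation, 4 were called higher after heat and 0 lower without the block, beside 0.785% of all tested genes in either direction. With the block 6 were called higher, beside 6.1%. In each fit 11 of 18 estimates were above 0, beside 50.8% of all tested genes without and 51.3% with the block. HSPA8, a constitutive HSP70 chaperone, rose by 1.04 (edgeR adjusted p = 0.0119). HSP90AA1, the inducible cytosolic HSP90 that holds the receptor, rose by 1.01 (adjusted p = 4.9e-05). FKBP4, the HSP90 cochaperone that favours transport of the receptor to the nucleus, rose by 0.81 (adjusted p = 0.000928). HSP90AB1, the constitutive HSP90, rose by 0.44 (adjusted p = 0.0239), a call that did not hold when only the library size was used for scaling (adjusted p = 0.0743), without a filter on low counts (0.0673) and in the compared groups alone (0.0541). The median of the 18 genes was 0.03, beside 0.00 for all tested genes.

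Of 20 tested immediate early genes, 1 was called higher and 4 lower after heat, beside 0.785% of all tested genes in either direction. With the block 1 was called higher and 8 lower, beside 6.1%. In each fit 8 of 20 estimates were above 0, beside 50.8% of all tested genes without and 51.3% with the block. KLF10, a transcription factor induced by TGF-beta, fell by 1.28 on the log2 scale (edgeR adjusted p = 0.000179). FOS fell by 0.97 (adjusted p = 0.0345), a call that held in 3 of 12 fits that left out 1 library and was lost in the compared groups alone (adjusted p = 0.0526). JUNB fell by 0.86 (adjusted p = 0.00644), while JUN rose by 1.64 (adjusted p = 0.000473). DUSP1 and SGK1 are themselves also induced as early genes by serum and stress, and the part of that response in their fall was not tested.

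Of the 29 further glucocorticoid targets, 1 was called for heat without the block, beside 0.785% of all tested genes. This was RGS2, a regulator of G protein signalling, which rose by 1.24 (edgeR adjusted p = 0.00715). With the block, 3 were called higher and 4 lower, beside 6.1% of all tested genes in either direction. The median of the 29 genes was -0.11 without the block, beside 0.00 for all tested genes. The 4 lower ones, chosen for mention after their values were seen, were DDIT4 (-0.78), NFKBIA (-0.61), TNS4 (-0.57) and GADD45B (-0.47), and the 3 higher ones were RGS2 (1.26), TXNIP (0.46) and ANXA1 (0.27).

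After 2 h at 37 °C, SGK1, DUSP1 and ERRFI1 were above their level at the end of heat in every library. SGK1 read 45.5, 63.8 and 81.6 CPM in D2R. It was higher than in HSD by 1.03 ± 0.32 without the block (edgeR adjusted p = 0.819) and rose by 1.01 ± 0.11 with the block (adjusted p = 7.6e-05), a call that held in 6 of 6 fits that left out 1 library. DUSP1 read 90.6, 99.5 and 78.9 CPM in D2R, 0.80 above HSD (adjusted p = 0.728, or 0.354 with the block). ERRFI1 read 110, 168 and 131 CPM in D2R, beside 87.0, 96.5 and 75.8 CPM in HSD, a difference of 0.66 (adjusted p = 0.99988, or 0.335 with the block).

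These 3 of 10 genes had groups that did not overlap, with D2R the higher, beside 5.05% of all tested genes. The same 3 had an unadjusted p under 0.05 in edgeR without the block, beside 3.53% of all tested genes, and in DESeq2, beside 647 of 15158. Called genes numbered 0 of 10 without the block, beside 0.0528% of all tested genes, and 0 of 10 with DESeq2, beside 43 of 15158. With the block 1 of 10 was called, SGK1, beside 0.389% of all tested genes.

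After 6 h, DUSP1 read 75.9, 148 and 169 CPM in D6R. Replicates 2 and 3 were the 2 highest DUSP1 values of the 18 libraries, while replicate 1 lay below all unheated libraries. Against HSD, DUSP1 rose by 1.35 ± 0.24 (edgeR adjusted p = 0.0455), and by 1.34 ± 0.27 with the block (adjusted p = 0.0257). Within replicates the difference was 0.16, 1.83 and 1.92. Without D6R replicate 1, the library singled out by its DUSP1 value, the rise was 1.62 (adjusted p = 0.00101, which follows in part from that choice). In each of the other 5 fits that left out 1 library the call was lost, with adjusted p from 0.0647 to 0.287. It was also lost in a fit of the compared groups alone (adjusted p = 0.515). With the block, the call held in 2 of 6 fits that left out 1 library, with adjusted p from 0.00011 to 0.150. JUN had the same split in D6R, with 83.9 CPM in replicate 1 beside 234 and 266 CPM in the others.

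SGK1 read 41.5, 72.5 and 102 CPM in D6R, the highest group mean of the 6, at 72.0 ± 30.3 CPM (SD, n = 3). Against HSD, it was higher by 1.21 ± 0.32 without the block (edgeR adjusted p = 0.305) and rose by 1.14 ± 0.11 with it (adjusted p = 1.4e-05), a call that held in 6 of 6 fits that left out 1 library. The differences within replicates were 0.74, 1.16 and 1.50. Without D6R replicate 1, SGK1 was 1.49 above HSD without the block (adjusted p = 0.0999) and rose by 1.28 with it (adjusted p = 3.2e-06). SGK1 went with DUSP1, so these p-values follow in part from that choice of library and add no support. Of the 10 genes, 1 was called without the block, beside 0.066% of all tested genes, and 2 with it, beside 3.27%. Without that library these counts were also 1 and 2, beside 0.0903% and 4.15%, and they too follow in part from that choice. All 10 estimates against HSD were above 0, beside 51.6% of all tested genes, with a median of 0.17, beside 0.01. The 10 estimates share the same libraries, so their common sign is not 10 separate observations.

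**Figure D3:**
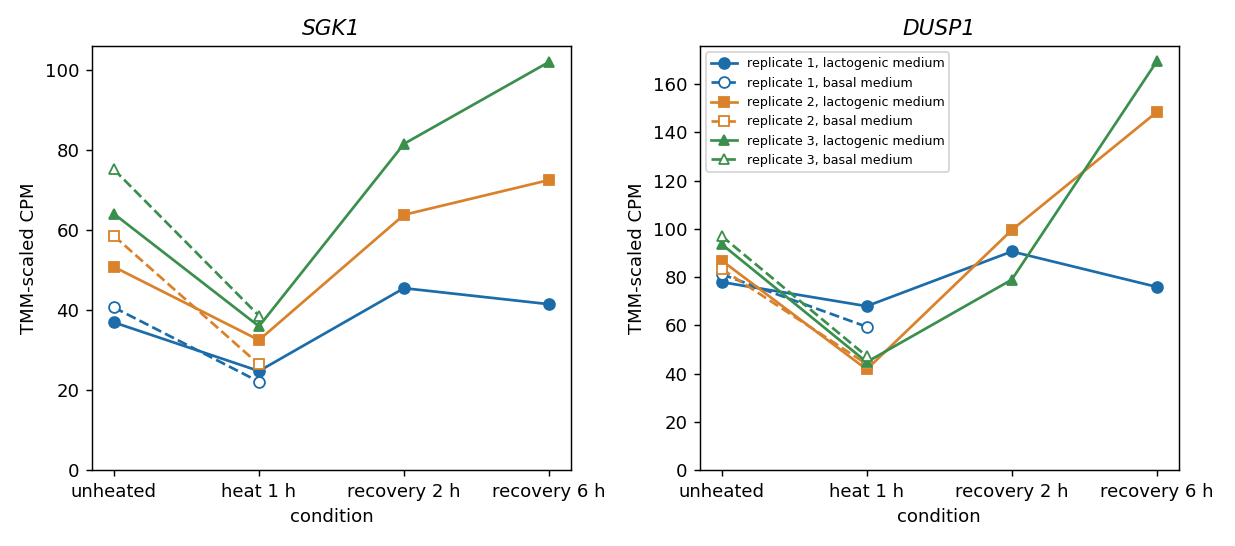
TMM-scaled CPM (y axis) of SGK1 and DUSP1 in unheated, heated and recovering cells (x axis); lines join libraries of the same replicate number, filled symbols are lactogenic and open symbols basal medium. All 6 lines go down with heat, the 3 lactogenic lines go up in the first 2 h of recovery, and replicate 1 of DUSP1 ends at 75.9 CPM while the others end at 148 and 169.

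The comparisons of recovery with unheated and with heated cells share the recovery libraries. Against unheated differentiated cells, SGK1 was higher in 3 of 3 replicates at 2 h, by 0.33 (edgeR adjusted p = 0.999, or 0.278 with the block). At 6 h the difference was 0.51 without the block (adjusted p = 0.932), and SGK1 rose by 0.46 with it (adjusted p = 0.0374). That call held in 1 of 6 fits that left out 1 library, the one without D6R replicate 1 (0.60, adjusted p = 0.00363). SGK1 correlated with DUSP1, whose values singled out that library, so this p-value adds no support. Without the block and without that library the difference was 0.78 (adjusted p = 0.572). At 6 h, 0 of 10 genes were called by edgeR without the block, beside 0.0132% of all tested genes, and by DESeq2, beside 39 of 15158. In each, 1 of 10, DUSP1, had an unadjusted p under 0.05, beside 6.07% of all tested genes in edgeR and 1053 of 15158 in DESeq2. With the block 1 of 10 was called, beside 1.45%. Without D6R replicate 1, 0 of 10 were called without the block, beside 0.058%, and 2 of 10 with it, DUSP1 and SGK1, beside 2.77%. These counts follow in part from the choice of that library. The order of the group means of SGK1 was HSUD, HSD, NHSD, NHSUD, D2R and D6R, and among neighbours the step from HSD to NHSD was called with the block.

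DUSP1 at 2 h overlapped unheated cells, with a difference of 0.06 and an interval of -0.44 to 0.55. At 6 h it was 0.61 above unheated cells (edgeR adjusted p = 0.746), higher in 2 of 3 replicates, and the fits that left out 1 library gave 0.38 to 0.88. Without D6R replicate 1, DUSP1 was 0.88 above unheated cells without the block (adjusted p = 0.146) and 0.92 above with it (adjusted p = 0.00922). That library was left out because of its DUSP1 value, so these p-values add no support. TSC22D3 read 22.5, 21.9 and 34.0 CPM in D2R and 22.1, 31.0 and 47.6 CPM in D6R. At 6 h it was above NHSD in 3 of 3 replicates, by 0.51, or 0.55 with the block (edgeR adjusted p = 0.063), and the fits without the block that left out 1 library gave 0.17 to 1.00. Leaving out D6R replicate 1 gave 0.74 (adjusted p = 0.801), or 0.57 with the block (adjusted p = 0.0828).

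PER1 gave lower values than unheated cells at both recovery times, without being called. It read 24.4, 20.6 and 23.5 CPM in D2R, so that every library lay below every NHSD library, at a difference of -0.54 (edgeR adjusted p = 0.999, or 0.520 with the block). At 6 h, PER1 read 17.8, 24.5 and 31.7 CPM, lower than NHSD in 3 of 3 replicates, by -0.42 with an interval of -1.01 to 0.17, or -0.24 without D6R replicate 1 (adjusted p = 0.901). GLUL was the other gene whose 2 h group did not overlap NHSD, at 36.5, 34.9 and 36.4 CPM beside 36.9, 40.1 and 44.9 CPM, a difference of -0.18. These 2 of 10 genes with a D2R group wholly below NHSD stood beside 3.17% of all tested genes. In this comparison at 2 h, 0 of 10 genes were called with edgeR, with or without the block, beside 0.0792% and 0.224% of all tested genes. None had an unadjusted p under 0.05 without the block or with DESeq2, beside 467 and 562 of 15158 tested genes. DESeq2 called 0 of 10, beside 33 of all tested genes. With the block 1 of 10 had an unadjusted p under 0.05, SGK1, beside 10.2% of all tested genes.

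Between 2 h and 6 h, both on plate III, 0 of 10 genes and 0% of all tested genes were called with edgeR, with or without the block. DESeq2 called 0 of 10, beside 3 of 15158 tested genes. Without the block and with DESeq2, 2 of 10 had an unadjusted p under 0.05, ERRFI1 and DUSP1. All tested genes stood at 3.86% in edgeR and at 695 of 15158 in DESeq2. ERRFI1, at 107, 115 and 63.6 CPM in D6R, was lower than at 2 h in 3 of 3 replicates, by -0.51 with an interval of -1.03 to 0.00. With D6R replicate 1 left out it was -0.61 (edgeR adjusted p = 0.636), or -0.74 with the block (adjusted p = 0.0985). DUSP1 was higher at 6 h in 2 of 3 replicates, by 0.55, and the fits that left out 1 library gave 0.32 to 0.82. Without D6R replicate 1, DUSP1 was 0.82 higher without the block (adjusted p = 0.169) and 0.87 higher with it (adjusted p = 0.0172). In that blocked fit 1 of 10 genes was called, beside 1.51% of all tested genes. The called gene was DUSP1, whose value had led to leaving that library out. NR3C1 was higher at 6 h in 3 of 3 replicates, by 0.12 with an interval of -0.21 to 0.46, or 0.15 without that library.

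Against unheated cells, some genes of the receptor machinery were called higher during recovery. At 2 h, 2 of 18 were called without the block, beside 0.0792% of all tested genes. These were HSP90AA1 at 1.23 (edgeR adjusted p = 0.00155) and FKBP4 at 1.20 (adjusted p = 0.00248). At 6 h, 1 of 18 was called, HSP90AA1 at 1.16 (adjusted p = 0.0036), beside 0.0132% of all tested genes. With the block, 3 of 18 were called at 2 h, beside 0.224%, and 2 of 18 at 6 h, beside 1.45%. All 3 calls without the block were lost in fits of the compared groups alone, with adjusted p from 0.156 to 0.246.

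Of the 10 genes, 5 had more of their variance between replicate numbers and 5 had more between groups, a count not made over all tested genes. The shares were not adjusted for the number of classes, 6 groups against 3 replicate numbers. Random spread alone gives the 6 groups the larger share, so a larger share between groups does not by itself show a group effect. A test of the replicate number in the blocked fit, chosen after the data were seen, called 6 of 10 genes, a share close to the 53.6% of all tested genes. Of the 29 further targets, 24 were called. TSC22D3 had 81.4% of its log2 CPM variance between replicate numbers and 10.2% between groups. For FKBP5 these shares were 75.5% and 12.0%, and for ZBTB16 76.2% and 8.15%. The medians over all tested genes were 34.9% between replicate numbers and 27.6% between groups.

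The replicate 3 library exceeded the replicate 1 library in 6 of 6 groups for TSC22D3, FKBP5, ZBTB16 and SGK1. The difference was 1.15 on the log2 scale for TSC22D3 (edgeR adjusted p = 2.3e-07) and 0.49 for FKBP5 (adjusted p = 2.5e-05). It was 0.86 for SGK1 (adjusted p = 3.3e-07) and 2.00 for ZBTB16 (adjusted p = 2.2e-05). GLUL (adjusted p = 0.00723) and NR3C1 (adjusted p = 0.0469) were also called. DUSP1 had 75.8% of its variance between groups and 0.496% between replicate numbers, and SGK1 63.7% and 33.5%. What differed between the runs of the experiment was not tested.

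**Figure D4:**
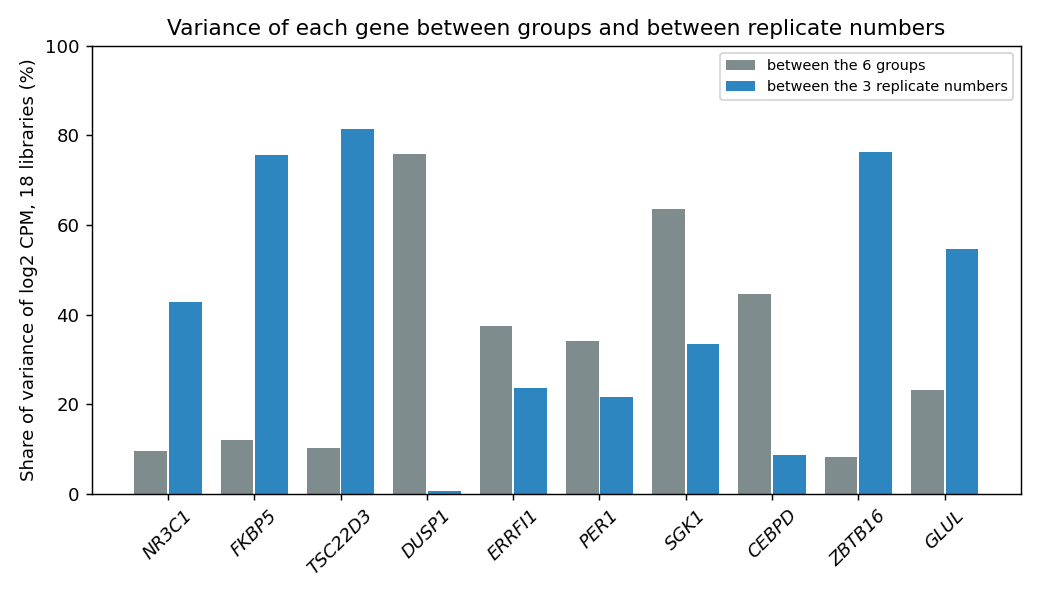
Share of the variance of log2 CPM over 18 libraries (y axis, %) that lies between the 6 groups (grey bars) and between the 3 replicate numbers (blue bars) for each gene (x axis). TSC22D3, ZBTB16 and FKBP5 have more than 75% between replicate numbers, and DUSP1 has 75.8% between groups. The shares are not adjusted for the number of classes, and random spread alone gives the 6 groups the larger share.

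Correlations between some of the 10 genes over the 18 libraries are a description, since the libraries share runs and groups, and the pairs were chosen after their values were seen. DUSP1 correlated with SGK1 at r = 0.78 on log2 CPM, and at r = 0.91 after the mean of each replicate number was subtracted. DUSP1 and CEBPD gave 0.82 and 0.84 in the same way. FKBP5 and TSC22D3 correlated at 0.85, but at 0.29 after that subtraction, and TSC22D3 and ZBTB16 at 0.77 and then 0.26. Other pairs did not follow either course, with NR3C1 and FKBP5 at 0.70 and then 0.55, PER1 and ZBTB16 at 0.62 and 0.66, and DUSP1 and ERRFI1 at 0.20 and 0.23.

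Among 9762 named genes with a mean of at least 5 CPM, the 3 most like DUSP1 over the 18 libraries, after that subtraction, were SIK1 (r = 0.92), OXSM (0.91) and SGK1 (0.91). The 3 most like NR3C1 were NLGN1 (0.86), DSG1 (0.79) and GNG12 (0.79).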

How the data were processed

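Per the labels' protocols, the authors used fastp 0.23.2 for trimming of paired-end poly-A reads, and STAR 2.7.9a for alignment to ARS-UCD 1.3, a cattle genome. The submitters' processing notes name featureCounts 2.0.3, DESeq2 and limma. The annotation and the treatment of strand and read pairs were not given in the sources used here. The authors deposited unnormalised counts for each gene and library. Between 69.8% and 75.0% of the counts from 1 to 20 in a library were even, so both mates of a pair may have been counted. All columns matched a sample label, and 0 were left over.

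Counts were filtered (filterByExpr, minimum count 10), TMM-scaled and fitted with 1 mean per group over 18 libraries by edgeR 4.0.16 in R 4.3.3 (quasi-likelihood, robust, two-sided, Benjamini-Hochberg over 15158 genes). Log2 fold changes have standard errors (SE) from the F statistic and 95% intervals. The 10 members and the gene lists were chosen with earlier results of these data known. Beside the members, at most 4 called genes per list and comparison with the largest change are named, or values of the 2 with the smallest p. For NR3C1 and the member with the widest range of group means, the 3 most similar genes are named.

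Per the labels, the experiment was carried out 3 times. Deviations from the group means correlated across genes at r of 0.135 to 0.596 in the 45 pairs that share a replicate number. The median was 0.365 there, so the numbers were taken to pair the libraries. In pairs with other numbers it was -0.20. Subtracting the group means ties this value to the first, so it is no separate evidence for the pairing. No 2 libraries of a group agreed within sampling noise (chi-square per gene of at least 67.9). The labels do not say which run of the culture each number marks, so p-values measure the spread between these samples. An exact permutation test of 3 libraries against 3 has a smallest p of 0.1, so genes were tested through the model. Alternatives were DESeq2 1.42.0, its size factors, library size alone, no filter, the compared groups alone, the block, and leaving out each library. The fits were tested on simulated data for 6 h against heated cells alone, with the replicate effect and spread taken from the blocked fit. That test does not cover the medium or heat comparisons.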

Additional observations from a re-analysis of the deposited data

How the results depend on the processing

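The common coefficient of variation between libraries was 0.245 without and 0.14 with the replicate block. With the block, the number of the 10 members called went from 0 to 1 for heat in undifferentiated cells, for heat in differentiated cells, for 6 h of recovery against unheated and for 2 h against heated cells. It went from 1 to 2 for heat averaged over media and for 6 h against heated cells, where DESeq2 also gave 2, and the compared groups alone gave 0 for the latter. DESeq2 called 299 and 93 of all 15158 tested genes there, and the compared groups alone 2 of 14281 for the latter. The block changed no other call among the members. Scaling by library size alone moved the median of all genes to 0.14 for 6 h against heated cells. Leaving out 1 library gave 0 to 1 members without the block for heat averaged and for 6 h against heated cells. Over all tested genes these fits called 67 to 156 and 2 to 14. With the block, leaving out a library or a whole replicate number gave 1 to 2 for heat in undifferentiated cells, 0 to 2 for heat in differentiated cells, 1 to 4 for heat averaged, 0 to 3 for 6 h against unheated cells, 1 to 2 for 2 h against heated cells, 1 to 3 for 6 h against heated cells and 0 to 3 for 6 h against 2 h. Of all 15154 to 15530 tested genes, these fits called 30 to 766, 22 to 501 and 123 to 2606 for heat. For recovery they called 4 to 429, 22 to 71, 16 to 1090 and 0 to 547, in the order above. The 4 members for heat averaged came with 1787 called genes without HSD replicate 1, and with 1358 without replicate 1 in every group.

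Estimates near 0 changed sign, none of them called. For heat averaged, FKBP5 was 0.00462 with DESeq2 size factors and with DESeq2, and GLUL was -0.10 with library size alone. For the medium averaged, GLUL was 0.00869 and NR3C1 0.014 with library size alone. Leaving out 1 library gave ranges across 0 for heat averaged in FKBP5 (-0.097 to 0.086), GLUL (-0.067 to 0.058) and TSC22D3 (-0.062 to 0.43). For the medium averaged these were -0.12 to 0.080 in DUSP1, -0.047 to 0.15 in ERRFI1, -0.10 to 0.024 in GLUL, -0.082 to 0.042 in NR3C1, -0.25 to 0.035 in PER1, -0.16 to 0.079 in SGK1, -0.30 to 0.20 in TSC22D3 and -0.23 to 0.33 in ZBTB16. DUSP1 ranged from -0.20 to 0.20 for the difference of heat between media and from -0.023 to 0.14 for 2 h against unheated cells. The causes of these shifts were not tested. Of the 10 genes, ZBTB16 had the fewest counts, 8 to 172 per library.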

Other observations

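HSD11B1, which encodes the enzyme that regenerates active cortisol from cortisone, had 80.6% of its variance between replicate numbers and 14.5% between groups. Its replicate 3 library was the highest in 6 of 6 groups (edgeR adjusted p for the replicate number 5.3e-08). PDK4, a kinase that restrains pyruvate dehydrogenase and a known glucocorticoid target, was higher in replicate 3 than in replicate 1 by 3.18 on the log2 scale, in 6 of 6 groups (adjusted p = 8.5e-10). KLF9, a transcription factor and known target, differed by 1.03 in the same direction in 6 of 6 groups (adjusted p = 2.5e-06). ANXA1, another known target, was lower in replicate 3 in 6 of 6 groups, by -0.59 (adjusted p = 1.1e-05). These genes were chosen after their values were seen, and 53.6% of all tested genes were called for the replicate number.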
